A study of Homo sapiens with 4 samples.

Results

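The cytochrome P450 genes were followed in HuH7 cells, a line from a human hepatocellular carcinoma, with and without a CRISPR/Cas9 knockout of KDM6B, a demethylase that removes a repressive methyl mark from histone H3. The members were 46 human P450 genes outside the CYP51 family, chosen by symbol and grouped by family and role. Of these, 42 had a probe set annotated with 1 gene symbol, among 19775 genes so measured, and 86 probe sets read them. CYP2C18, CYP2C19, CYP3A7 and CYP21A2 had no such probe set and were not analysed here.

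The groups were 2 arrays of HuH7 cells labelled KDM6B knockout and 2 arrays of HuH7 cells labelled KDM6B wild-type. Both came from the same cell line background and no drug treatment is named for either group. Per the labels' protocols, plasmids for a guide RNA and for Cas9 were transfected, G418 was used for selection, and knockout lines were grown from limiting dilutions. Nothing states which line each knockout array came from, or that arrays of a group are separate cultures, so the p-values measure only the spread between these arrays, which may be technical. An effect of losing KDM6B and one of deriving lines from few cells cannot be told apart.

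Cytochrome P450 enzymes are heme proteins that insert an oxygen atom into their substrates, using electrons passed from P450 reductase in the endoplasmic reticulum or from ferredoxin in mitochondria. In liver the enzymes of families 1 to 3 clear drugs and other foreign compounds, whereas other families make and break down bile acids, steroids, eicosanoids and the active forms of vitamins A and D. Many of these genes are switched by receptors that sense the substrates themselves, such as the aryl hydrocarbon receptor AHR, the nuclear receptors CAR and PXR, and the retinoic acid receptors.

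KDM6B was read first, as the targeted gene on chromosome 17. Its brightest probe set read 7.95 and 8.14 on the knockout arrays, against 8.46 and 8.27 on the wild-type arrays, as log2 RMA values. Both knockout arrays lay below both wild-type arrays, as for 23.5% of all genes. The log2 difference, knockout minus wild type, was -0.32 (SE 0.12) and did not pass the test (limma adjusted p = 0.235). Its other probe sets gave -0.40 to -0.21 and did not pass either. A cut directed by a guide need not lower an mRNA, and the position of the cut relative to these probe sets was not determined here. Arrays of the same group correlated at 0.994 in knockout and 0.992 in wild type over all probe sets, and arrays of different groups at 0.985 to 0.989. Of 12 measured hepatocyte markers 5 fell (41.7%, against 3.94% of all genes) and 7 did not pass, with a median of -0.28. The falls were AHSG at -4.02, HP at -1.82, APOB at -0.74, FGB at -0.63 and SERPINA1 at -0.49. APOA2 had -0.59, and ALB, AFP, APOA1, FGA, TF and TTR had -0.07 to 0.09, without passing. Both knockout arrays were below both wild-type arrays for 7 of the 12 (58.3%, against 23.5% of all genes). Markers of other cell types were called in 1 of 5 endothelial genes (PECAM1, lower), 1 of 5 leukocyte genes (LYZ, lower), 1 of 5 cholangiocyte genes (KRT19, higher), and 0 of 6 fibroblast and 0 of 5 stellate cell genes by limma. Below the 25th percentile of all probe sets on every array were 1 fibroblast, 1 stellate cell, 2 endothelial and 1 leukocyte marker. The log2 of the summed leukocyte markers was 9.52 and 10.08 in knockout, against 11.38 and 10.80 in wild type, a sum led by LYZ. The part of these markers in the P450 results was not tested.

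Of the 42 measured P450 genes, 2 rose and 2 fell in knockout at an adjusted p under 0.05, and 38 did not pass. CYP1B1 and CYP26A1 rose, and CYP2B6 and CYP4F3 fell. The rises make 4.76% of the members, where 3.14% of all 19775 genes rose. The falls make 4.76% of the members, where 3.94% of all genes fell. In either direction 7.07% of all genes were called. The members' shares are close to this background, so the count says nothing particular about the family, and its median difference of 0.04 stood beside 0.01 over all genes. The knockout arrays both read above both wild-type arrays for 8 of the 42 members, against 22.4% of all genes, and both below for 11 of the 42 (26.2%), against 23.5% of all genes. Among all genes the groups did not overlap in 45.9%. The 4 called genes belong to 4 different subfamilies and 4 different substrate classes.

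**Figure D1:**
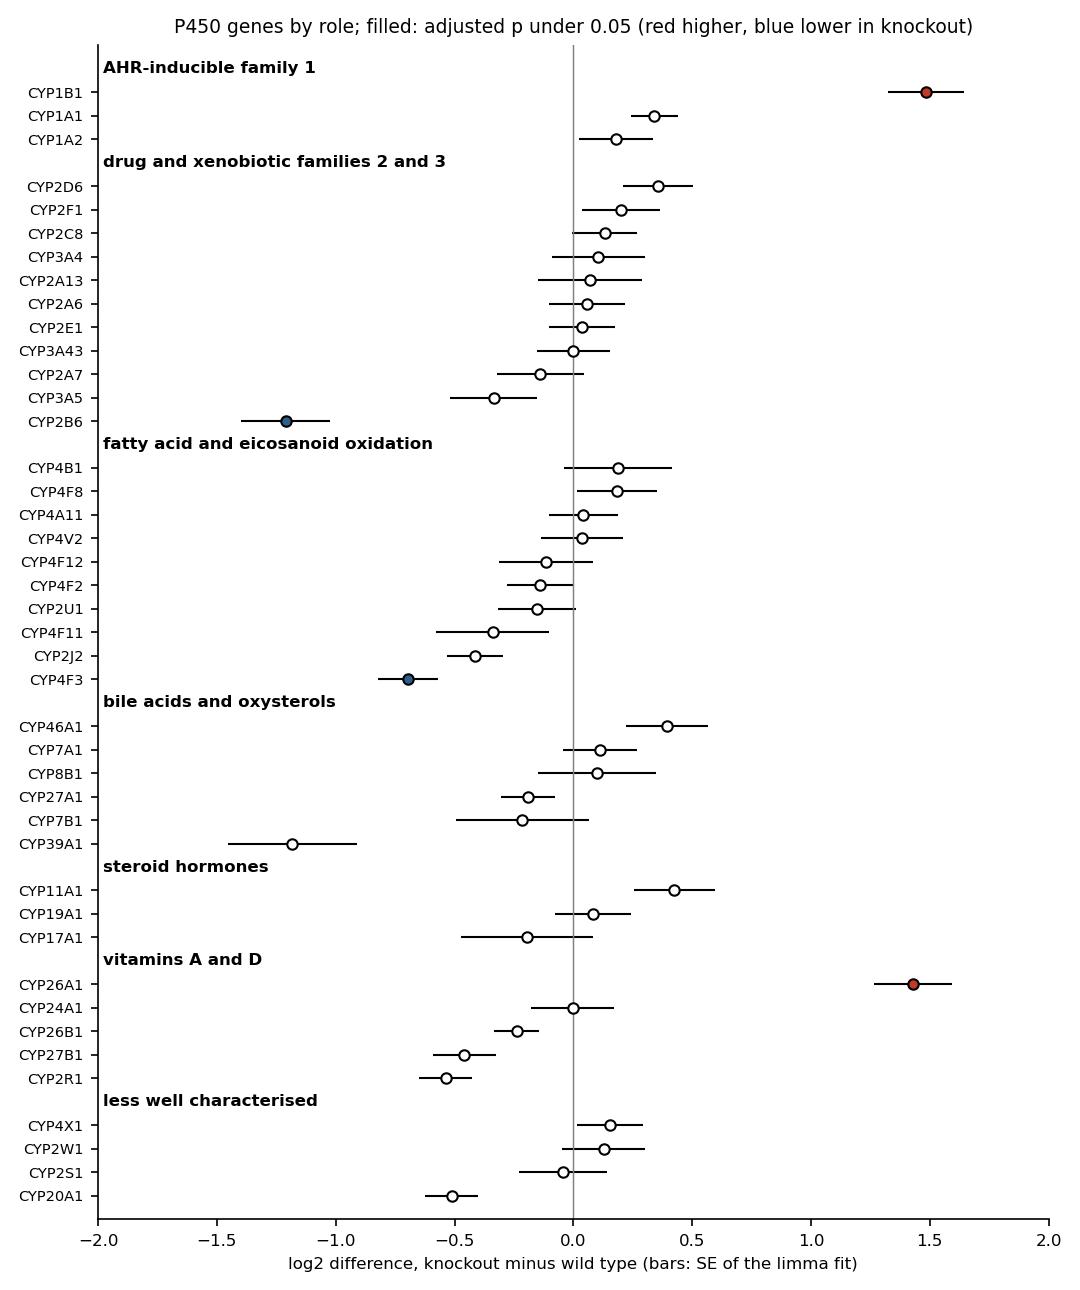
Log2 difference, knockout minus wild type, of the brightest probe set of each of the 42 measured P450 genes (x axis), grouped by role down the page, with the SE of the limma fit over 2 arrays a group. The filled points are CYP1B1 at 1.48 and CYP26A1 at 1.43 (higher in knockout) and CYP2B6 at -1.21 and CYP4F3 at -0.70 (lower), and CYP39A1 at -1.18 is open because its wider error left it above the threshold.

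Family 1 holds the genes that AHR induces, whose enzymes activate polycyclic aromatic hydrocarbons and hydroxylate oestrogens. CYP1B1, on chromosome 2, read 7.42 and 7.54 in knockout, against 6.17 and 5.82 in wild type. The groups did not overlap, and each group's own 2 arrays lay closer to each other than to any array of the other group. The gene rose 2.79-fold (log2 difference 1.48, SE 0.16, limma adjusted p = 0.0087). All 4 CYP1B1 probe sets had positive differences. The first 3 by brightness gave 1.48, 1.35 and 1.34, and the dimmest gave 0.19. When every probe set was tested by itself, the first 2 passed. All 4 are of a type whose probes may match more than 1 transcript, so no value could be had for CYP1B1 without them. CYP1B1-AS1, the antisense gene beside it, had a difference of -0.22 and did not pass.

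CYP1A1, the most AHR-responsive gene of the family in liver cells, read 8.69 and 8.57 in knockout, against 8.27 and 8.30 in wild type. Both knockout arrays were above both wild-type arrays, but the log2 difference of 0.34 (SE 0.10) did not pass (limma adjusted p = 0.122). CYP1A2, its neighbour on chromosome 15 and a caffeine-metabolising enzyme of adult liver, read 5.98 and 6.07 in knockout, against 5.99 and 5.71 in wild type. Those groups overlapped, and the difference was 0.18 (SE 0.16, limma adjusted p = 0.655). All 3 members of family 1 therefore had positive differences, of which CYP1B1 alone was called, and whether the CYP1B1 difference exceeded that of CYP1A1 was not tested. Of 5 other AHR target genes measured of 6 listed, limma called 0, where 7.07% of all genes were called in either direction. Their differences ran from -0.32 (NQO1, a quinone reductase) to 0.27 (AHRR, the AHR repressor).

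**Figure D2:**
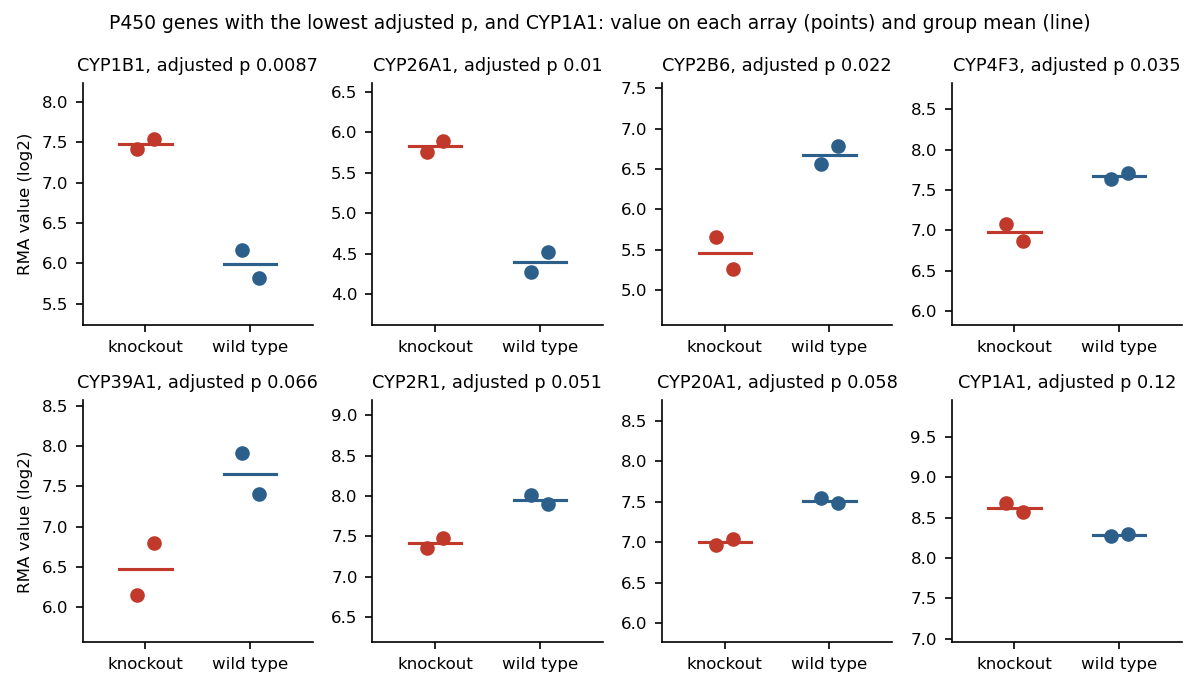
Log2 RMA value on each array (points) and group mean (line), knockout left of wild type, for the 7 P450 genes of lowest adjusted p and for CYP1A1. Every panel spans the same 3 log2 units, and in each the knockout and wild-type arrays are apart, by least in CYP1A1.

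CYP26A1 encodes the main retinoic acid hydroxylase, which ends the retinoic acid signal and is itself among the genes that retinoic acid induces most. Its probe set read 5.76 and 5.90 in knockout, against 4.28 and 4.52 in wild type. The groups did not overlap, and the knockout values lay above the median of all probe sets on their arrays (5.05 and 5.01) while the wild-type values lay below theirs (4.96 and 5.04). CYP26A1 rose 2.69-fold (log2 difference 1.43, SE 0.16, limma adjusted p = 0.010). It has 1 probe set, of the type specific to a gene. CYP26B1, the second retinoic acid hydroxylase, read 8.28 and 8.24 in knockout, against 8.48 and 8.51 in wild type. Its difference was of opposite sign (-0.24, SE 0.09) and did not pass (limma adjusted p = 0.242).

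The promoters of the called genes are shown because 3 of the 4 have an entry in the RefSeq table used (build GRCh38.p14), which covers 34 of the 46 members. Each run is the 250 bases before a start site of that table, 5′ to 3′ on the gene's strand. Of the start sites listed for CYP26A1, the one with the repeat is printed. The CYP26A1 and CYP4F3 windows lie downstream of the outermost annotated start of their genes, and so within the gene, whereas the CYP2B6 window ends just before it. Capitals mark a direct repeat of retinoic acid receptor half-sites in CYP26A1 (chr10:93073643-93073892, plus strand) and a single nuclear receptor half-site, AGGTCA, in CYP2B6 (chr19:40991032-40991281, plus strand). The CYP4F3 window (chr19:15641062-15641311, plus strand) holds neither AGGTCA nor AGTTCA on either strand.
CYP26A1: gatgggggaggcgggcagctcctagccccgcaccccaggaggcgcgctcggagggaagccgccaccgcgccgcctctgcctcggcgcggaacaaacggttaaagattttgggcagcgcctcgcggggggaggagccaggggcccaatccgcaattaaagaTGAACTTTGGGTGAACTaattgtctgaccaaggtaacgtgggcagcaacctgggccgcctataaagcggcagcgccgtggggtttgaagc
CYP2B6: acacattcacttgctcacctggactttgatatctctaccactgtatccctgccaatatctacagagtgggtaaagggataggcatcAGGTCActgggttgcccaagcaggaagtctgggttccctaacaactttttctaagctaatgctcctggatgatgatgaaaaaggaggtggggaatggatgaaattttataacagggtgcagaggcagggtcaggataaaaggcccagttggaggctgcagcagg
CYP4F3: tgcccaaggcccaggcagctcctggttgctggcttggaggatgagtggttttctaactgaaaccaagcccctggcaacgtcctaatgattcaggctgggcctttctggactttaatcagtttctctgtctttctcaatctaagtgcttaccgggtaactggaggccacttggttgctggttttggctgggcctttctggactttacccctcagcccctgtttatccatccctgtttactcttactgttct

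The repeat in CYP26A1 lies at -90 to -74 from the start (chr10:93073803-93073819), on the minus strand, and is made of 2 copies of AGTTCA with 5 bases between them. This spacing of 5 bases between half-sites is that of the classical retinoic acid response element. The motifs were chosen after the values were seen. Only 3 exact spellings of the spaced repeat were searched, among them those present in CYP26A1 and RARB. The shares below are of these spellings, and not of all repeats with this spacing. Both strands were searched, and 3 of 35116 windows of the same length, 0.00854%, held this motif. With the same spacing, 2 copies of AGGTCA were in 0.00285% of windows, and GGTTCA followed by AGTTCA in 0.0171%. The half-site AGGTCA alone, which the form made of it contains, was in 12.1% and AGTTCA in 8.8%. RARB, the retinoic acid receptor beta gene, holds GGTTCA followed by AGTTCA at -53 to -37 (chr3:25428210-25428226, plus strand). The pair is set out on the strand of each repeat, half-sites in capitals. These are 2 of the 3 measured genes whose window held any of the spaced forms, and the third is not set out.
CYP26A1: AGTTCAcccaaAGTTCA
RARB: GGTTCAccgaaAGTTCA

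The third measured gene with such a repeat was PHF8, a histone demethylase gene on the X chromosome. It holds the same form as CYP26A1, at -36 to -20, whereas RARB holds another form. The PHF8 difference was opposite in sign to those of CYP26A1 and RARB and did not pass (-0.57, SE 0.20, limma adjusted p = 0.186). A match is a description of letters and not a bound site. The printed CYP26A1 window held 22 CpG dinucleotides, against 0 in CYP2B6, 2 in CYP4F3 and a median of 11 over all windows. The other CYP26A1 window, not printed, held 10. The windows of all 34 members with an entry had a median of 3.

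Of 11 measured genes for retinoid handling, of 13 listed, 1 rose (CRABP2; 9.09%, against 3.14% of all genes), 0 fell by limma and 10 did not pass. CRABP2, which carries retinoic acid to its receptor, read 6.86 and 6.83 in knockout, against 6.13 and 6.30 in wild type (log2 difference 0.64, SE 0.13, limma adjusted p = 0.048). That call ended without the intensity trend (adjusted p = 0.063) and with gene-specific probe sets alone (adjusted p = 0.059). In the latter fit the CRABP2 probe set and difference were the same, and only the set of genes fitted differed. RARB had a difference of 0.51 (SE 0.14, adjusted p = 0.099), although its other 4 probe sets gave -0.24 to 0.15. DHRS3, a retinaldehyde reductase induced by retinoic acid, had 0.45 (SE 0.14, adjusted p = 0.138). The enzymes that make retinoic acid, ALDH1A1, ALDH1A2 and ALDH1A3, had differences of -0.13, 0.21 and 0.04, and RDH10 had 0.18, with 0 of these called by limma. The rest of the list, BCO1, LRAT, RBP4 and STRA6, had differences of 0.06, -0.23, -0.09 and 0.07, and was not called. RARB and DHRS3 thus had the largest uncalled differences of the list. The list's median was 0.07, beside 0.01 over all genes.

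**Figure D3:**
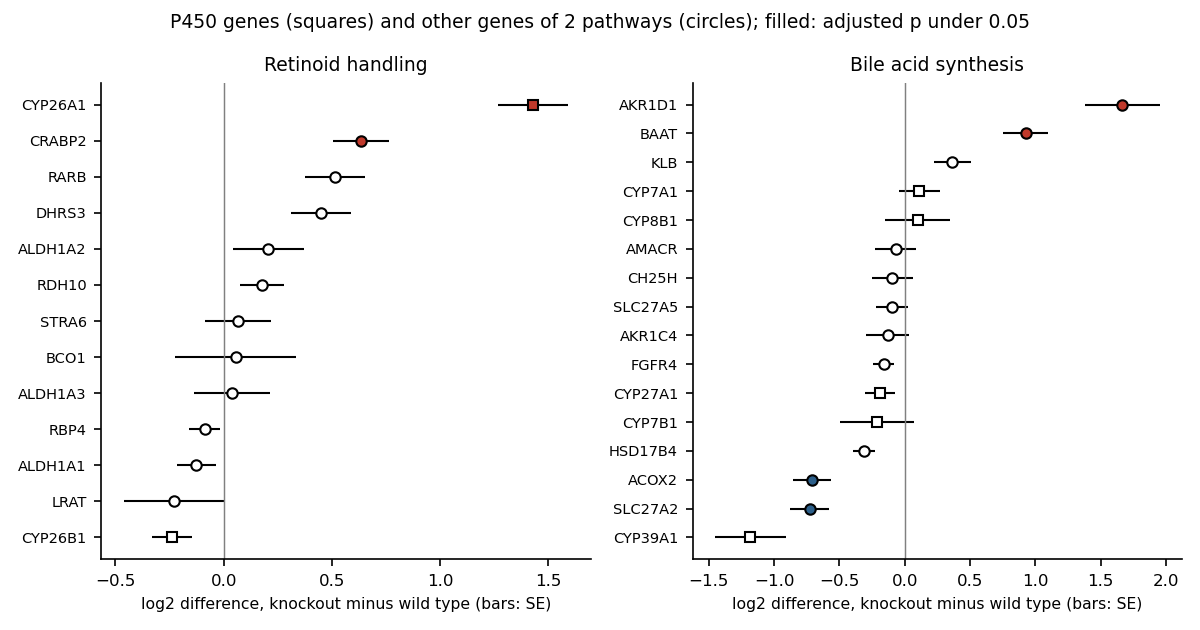
Log2 difference, knockout minus wild type, with the SE of the fit over 2 arrays a group, for P450 genes (squares) and other genes (circles) of retinoid handling (left) and bile acid synthesis (right). CYP26A1 (1.43) and CRABP2 (0.64) are the filled genes on the left, and AKR1D1 (1.66), BAAT (0.92), ACOX2 (-0.71) and SLC27A2 (-0.73) on the right.

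Families 2 and 3 hold the drug-metabolising enzymes of liver. CYP2B6, which metabolises bupropion and efavirenz and is a standard target of CAR, read 5.66 and 5.26 in knockout, against 6.56 and 6.78 in wild type. All 4 arrays separated by group. CYP2B6 fell 2.31-fold (log2 difference -1.21, SE 0.19, limma adjusted p = 0.022) on a probe set of the gene-specific type. Its other probe set, of a type that may cross-hybridise, gave -0.01 (SE 0.23). The mean of both gave -0.61 and did not pass (adjusted p = 0.116). CYP2B7P, the closely related pseudogene beside it, had a difference of -0.19 and was not called.

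The other 10 measured genes of this class did not pass. CYP2D6, which metabolises many antidepressants and opioids, read 6.68 and 6.43 in knockout, against 6.15 and 6.25 in wild type. Its groups did not overlap, and its difference was 0.36 (SE 0.15, limma adjusted p = 0.257). CYP2D6 shares sequence with neighbouring pseudogenes, so its signal is uncertain as to source. CYP2E1, the ethanol- and paracetamol-oxidising enzyme, read 6.32 and 6.12 in knockout, against 6.17 and 6.19 in wild type (difference 0.04, SE 0.14). CYP2A6, the main nicotine oxidase, read 6.37 and 6.21 in knockout, against 6.09 and 6.38 in wild type (0.06, SE 0.16). In both genes the groups overlapped. The CYP2A6, CYP2A7 and CYP2A13 differences ran from -0.14 to 0.07, and their probe sets may share signal.

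CYP3A4, the most abundant drug-metabolising P450 of adult liver, read 6.21 and 5.76 in knockout, against 5.97 and 5.79 in wild type. Its groups overlapped (difference 0.11, SE 0.19), and its 5 probe sets gave -0.06 to 0.13 with 0 called by limma. CYP3A5 had -0.34 (SE 0.18, limma adjusted p = 0.409) on its brightest probe set and 0.01 to 0.27 on its other 3, so its sign depended on the probe set. CYP3A4 and CYP3A5 were chosen for naming after their values were seen.

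**Figure D4:**
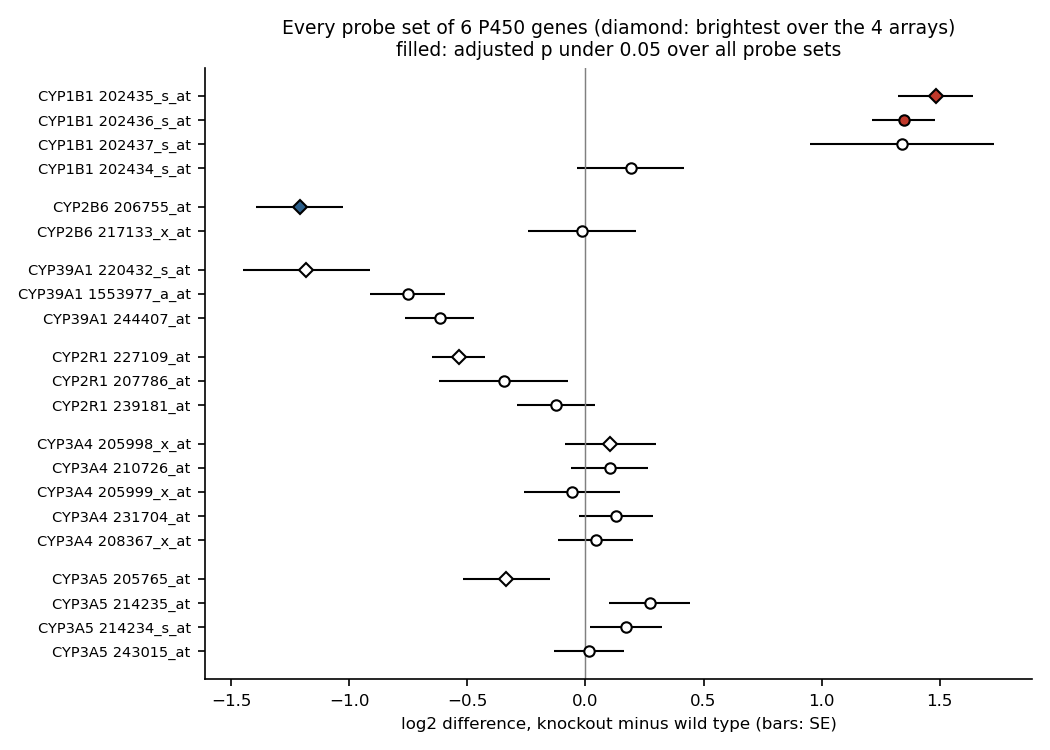
Log2 difference, knockout minus wild type, of every probe set of 6 P450 genes, with SE, the brightest over the 4 arrays drawn as a diamond and probe sets with an adjusted p under 0.05 over all probe sets filled. The CYP1B1, CYP39A1 and CYP2R1 probe sets each lie on 1 side of 0, CYP2B6 has 1 filled value and 1 near 0, and CYP3A5 spans both signs.

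Fatty acid and eicosanoid oxidation is the role of family 4, joined by CYP2J2 and CYP2U1. CYP4F3, which inactivates leukotriene B4 and makes hydroxylated arachidonic acid, read 7.08 and 6.87 in knockout, against 7.63 and 7.72 in wild type. Both knockout arrays lay below both wild-type arrays. CYP4F3 fell 1.62-fold (log2 difference -0.70, SE 0.13, limma adjusted p = 0.035), on its only probe set, of the gene-specific type. The call ended without an intensity trend in the variance (adjusted p = 0.060). CYP4F12, next to it on chromosome 19, read 7.43 and 6.92 in knockout, against 7.18 and 7.40 in wild type, which overlapped (difference -0.11, SE 0.20). The other measured CYP4F genes, CYP4F2, CYP4F8 and CYP4F11, had differences of -0.34 to 0.18 and were not called.

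CYP2J2, the epoxygenase of arachidonic acid, read 6.92 and 6.80 in knockout, against 7.25 and 7.30 in wild type. Both knockout arrays lay below both wild-type arrays, but the difference of -0.41 (SE 0.12) did not pass (limma adjusted p = 0.113). Over the class, 0 of 10 rose by limma, where 3.14% of all genes rose, 1 fell, where 3.94% of all genes fell, and 9 did not pass. The class median was -0.13, beside 0.01 over all genes.

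Bile acid synthesis from cholesterol starts with CYP7A1 in its main route and with CYP27A1 in its alternative one, and CYP39A1 and CYP7B1 act on oxysterols. CYP39A1, on chromosome 6, read 6.15 and 6.80 in knockout, against 7.92 and 7.40 in wild type. The groups did not overlap, and the arrays of each group lay far apart. The log2 difference of -1.18 (SE 0.27) missed the threshold (limma adjusted p = 0.066). All 3 CYP39A1 probe sets were negative, at -1.18, -0.75 and -0.62, and the mean of the 3 gave -0.85 and passed (adjusted p = 0.011). CYP39A1 also passed after repeated quantile normalization, at -1.13 (adjusted p = 0.033). It did not pass without the intensity trend (adjusted p = 0.107) or after median centring (adjusted p = 0.074). Among genes at or above the median brightness it did not pass either (adjusted p = 0.052). With gene-specific probe sets alone the difference was -0.62 (adjusted p = 0.085). The brightest probe set and the next are of a type that may cross-hybridise. No CYP39A1 probe set passed when tested by itself.

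CYP27A1 read 8.07 and 7.89 in knockout, against 8.11 and 8.23 in wild type. The values lay close together, and the difference was -0.19 (SE 0.12, limma adjusted p = 0.463). CYP7A1, the rate-limiting enzyme, read 2.47 and 2.20 in knockout, against 2.26 and 2.18 in wild type. These values lie below the 25th percentile of all probe sets on each array, so CYP7A1 was not shown to be above background in either group. CYP46A1, which hydroxylates cholesterol in brain, had a difference of 0.39 (SE 0.17, limma adjusted p = 0.286).

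Of 11 measured bile acid genes outside the family, of 13 listed, 2 rose (18.2%, against 3.14% of all genes), 2 fell (18.2%, against 3.94%) and 7 did not pass. AKR1D1, the steroid reductase of bile acid synthesis, rose 3.17-fold, reading 6.97 and 7.57 in knockout, against 5.92 and 5.29 in wild type (log2 difference 1.66, SE 0.29, limma adjusted p = 0.031). BAAT, which joins bile acids to glycine or taurine, rose by 0.92 (SE 0.17). ACOX2 and SLC27A2, which act in peroxisomal side-chain shortening and in acyl-CoA formation, fell by 0.71 (SE 0.14) and 0.73 (SE 0.15). Without the intensity trend all 4 calls ended, with adjusted p of 0.057 for AKR1D1, 0.053 for BAAT, 0.091 for ACOX2 and 0.098 for SLC27A2. In the fit on gene-specific probe sets alone ACOX2 (adjusted p = 0.058) and SLC27A2 (adjusted p = 0.061) lost their calls. Their probe sets and differences were the same there, and only the set of genes fitted differed. ACOX2 also lost its call after repeated quantile normalization (adjusted p = 0.0504) and SLC27A2 after median centring (adjusted p = 0.065). The mean of the SLC27A2 probe sets passed (-0.83, limma adjusted p = 0.014). The list had a median of -0.10, beside 0.01 over all genes.

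Among the genes for vitamin D, CYP2R1 carries out the first, hepatic activation step. It read 7.36 and 7.48 in knockout, against 8.01 and 7.90 in wild type. The groups did not overlap, and the difference of -0.54 (SE 0.11) missed the threshold narrowly (limma adjusted p = 0.051). It passed among genes at or above the median brightness (adjusted p = 0.033). Its other probe sets gave -0.35 and -0.12, and the mean of all its probe sets did not pass (-0.34, adjusted p = 0.197). CYP27B1, which makes the active hormone and is best known from kidney, read 6.19 and 6.02 in knockout, against 6.57 and 6.55 in wild type (difference -0.46, SE 0.13, limma adjusted p = 0.120). CYP24A1, which breaks the hormone down, lay below the 25th percentile on every array and had a difference of 0.00. VDR, the vitamin D receptor gene, rose by 0.81 (SE 0.13, limma adjusted p = 0.025), but the mean of its 4 probe sets did not pass (adjusted p = 0.068).

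CYP20A1, a conserved P450 with no settled substrate, read 6.96 and 7.04 in knockout, against 7.54 and 7.48 in wild type. Here too the knockout arrays were the lower ones, and the difference of -0.51 (SE 0.11) did not pass (limma adjusted p = 0.058). It passed in the fit on gene means over probe sets (adjusted p = 0.033) and among genes at or above the median brightness (adjusted p = 0.034). CYP20A1 has a single probe set, so its own values were the same in those fits and only the other genes differed. It did not pass without the intensity trend (adjusted p = 0.089). CYP11A1, which cleaves the cholesterol side chain in steroid-making tissues, had a difference of 0.43 (SE 0.17, limma adjusted p = 0.248). CYP11A1, CYP46A1 and CYP7A1 were chosen for naming after their values were seen. The 26 members that were neither called nor reached the median brightness of all genes had differences of -0.34 to 0.43. In 20 of them the groups overlapped, in 4 both knockout arrays were higher (15.4%, against 22.4% of all genes) and in 2 both were lower (7.69%, against 23.5%). CYP1A2 was the brightest of them and CYP4X1 the dimmest, with a difference of 0.15 (SE 0.14). In all, 8 members read below the 25th percentile of all probe sets on every array, namely CYP2C8, CYP2F1, CYP4F8, CYP4F11, CYP4X1, CYP7A1, CYP7B1 and CYP24A1.

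Neighbouring genes were set beside the called members, with 5 measured genes on each side. Over all genes, 3.14% rose and 3.94% fell. By limma, 0 of 10 neighbours were called for CYP1B1 and 0 of 10 for CYP2B6, with medians of -0.20 and 0.06. The neighbours of CYP2B6 include CYP2A6, CYP2A7, CYP2A13, CYP2F1 and CYP2S1, whose differences ran from -0.14 to 0.20. Beside CYP26A1, MYOF rose by 0.86 and the other 9 were not called. Beside CYP4F3, the noncoding gene UCA1 rose by 3.04 and the other 9 were not called. For CYP2R1 and CYP20A1, 0 of 10 neighbours each were called by limma. Around CYP39A1, 4 of 10 neighbours fell, where 3.94% of all genes fell, and the neighbours' median was -0.36. The falls were ENPP4 (-2.03), ENPP5 (-1.92), RCAN2 (-1.51) and PLA2G7 (-0.97). The part of this stretch in the CYP39A1 value was not tested.

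**Figure D5:**
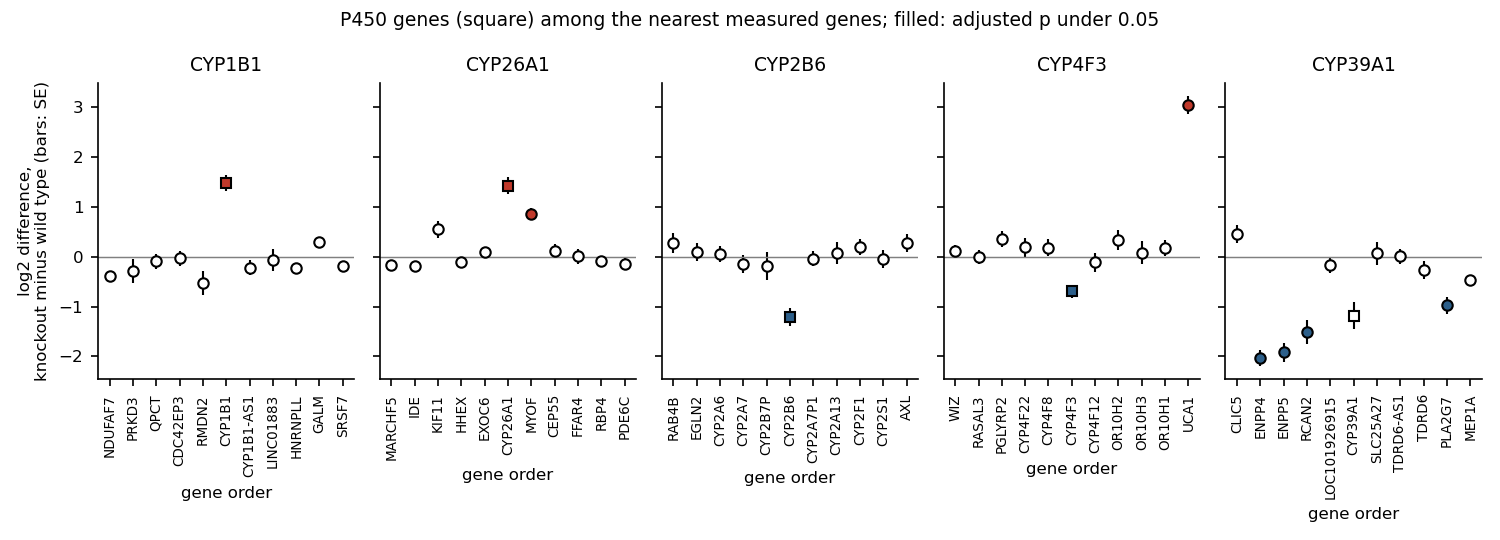
Log2 difference, knockout minus wild type, with SE, of CYP1B1, CYP26A1, CYP2B6, CYP4F3 and CYP39A1 (squares) and of the 5 nearest measured genes on each side in RefSeq order (circles), filled where the adjusted p is under 0.05. CYP1B1 and CYP2B6 stand alone among their neighbours, whereas 4 neighbours of CYP39A1 are filled below 0.

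Electron donors and heme supply were read from 16 of 19 listed genes, of which 1 rose (6.25%, against 3.14% of all genes), 1 fell (6.25%, against 3.94%) and 14 did not pass, with a median of -0.16, beside 0.01 over all genes. FECH, which inserts iron into heme, read 7.99 and 8.06 in knockout, against 8.72 and 8.69 in wild type, and fell by 0.68 (SE 0.10, limma adjusted p = 0.018). With gene-specific probe sets alone the difference was -0.54 and the call ended (adjusted p = 0.146). The mean of its probe sets did not pass either (-0.46, adjusted p = 0.053). HMOX1, which degrades heme, rose by 0.58 (SE 0.11, limma adjusted p = 0.044). Its call ended without the intensity trend (adjusted p = 0.097), with gene-specific probe sets alone (adjusted p = 0.057) and after median centring (adjusted p = 0.075). With gene-specific probe sets alone, the HMOX1 probe set and difference were the same, and only the set of genes fitted differed. POR, the reductase that serves the microsomal P450 enzymes, read 8.66 and 8.39 in knockout, against 8.97 and 8.98 in wild type, and its difference of -0.45 (SE 0.12) did not pass (limma adjusted p = 0.102).

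Of 24 measured regulators of P450 genes, of 29 listed, 2 rose (8.33%, against 3.14% of all genes), 2 fell (8.33%, against 3.94%) and 20 did not pass, with a median of 0.02. HLF, a transcription factor gene of the family that drives daily rhythms of P450 genes in mouse liver, read 4.35 and 4.18 in knockout, against 7.44 and 7.38 in wild type. It fell by 3.15 (SE 0.14, limma adjusted p = 9.8e-04), and all 3 of its probe sets passed. CEBPB fell by 0.59 (SE 0.08) and NR5A2, a receptor that drives bile acid synthesis genes, rose by 0.85 (SE 0.11), along with VDR. CEBPB lost its call without the intensity trend (adjusted p = 0.066), and NR5A2 with the mean of its probe sets (0.65, adjusted p = 0.073). AHR, with a difference of 0.30 (SE 0.31), and NR1I3, which encodes CAR, with 0.04 (SE 0.16), were not called.

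Most P450 calls ended when an array was left out, while the differences kept their sign. CYP1B1 stayed called without wild type 1 (adjusted p = 0.040) but not without wild type 2, knockout 1 or knockout 2 (highest adjusted p = 0.136). CYP26A1, CYP2B6 and CYP4F3 were called with no array left out and lost the call without each of the 4 in turn, with adjusted p of 0.051 to 0.25. In those fits the difference was 1.31 to 1.66 for CYP1B1, 1.31 to 1.55 for CYP26A1, -1.41 to -1.01 for CYP2B6 and -0.80 to -0.59 for CYP4F3. Of the called genes named from the lists of electron donors, regulators, bile acid enzymes and retinoid handling, HLF kept its call without each array (adjusted p of 0.020 to 0.043), and the others lost theirs.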

How the data were processed

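Expression was measured on 4 Affymetrix arrays of HuH7 cells, 2 knockout and 2 wild type, grouped by sample title. The deposited values are log2 expression values, made by the authors with RMA and the affy package per the submitters' processing notes, and no version of either is given. The quantile step of RMA removes any change shared by most genes. No detection calls were used, and the number of arrays limits precision.

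Of 54613 probe sets, 41091 had 1 symbol in the platform annotation, 1801 had several and 11721 had none. The brightest probe set by mean of the 4 arrays stood for each gene. All 42 members matched RefSeq genes by Entrez identifier.

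Knockout was compared with wild type in limma 3.58.1 (R 4.3.3), with an intensity trend, two-sided, Benjamini-Hochberg over 19775 genes, called at adjusted p under 0.05. Degrees of freedom were 2 (residual) plus 3.62 (prior). With 2 arrays against 2, exact permutation cannot go below p = 0.333, and it was not run. Steps were tested on simulated data. Probe sets ending in _s_at, _x_at or _a_at were taken as ones that may cross-hybridise. Figures used matplotlib 3.10.9.

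Members were described singly if called, or if the mean of either group was at least the median over genes, and the others by counts and ranges. Of those others, CYP1A2 and CYP4X1 were also named as the brightest and the dimmest. CYP3A4, CYP3A5, CYP7A1, CYP11A1, CYP24A1 and CYP46A1 were named outside this rule. Members and lists were chosen with earlier results of these data known. Alternatives changed the variance trend, probe set choice, normalization, brightness filter, threshold, replicate block and arrays used.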

Additional observations from a re-analysis of the deposited data

How the results depend on the processing

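The P450 counts of 2 higher and 2 lower came with 620 genes higher and 779 lower. Without the intensity trend 2 members were higher and 1 lower (374 and 409 genes). Without probe sets that may cross-hybridise, where 34 members could be tested, 1 was higher and 2 lower (372 and 454 genes), because CYP1B1 has no other probe set. Among genes whose mean over the 4 arrays was at or above the median brightness, 14 members were tested, without CYP26A1 and CYP2B6. Of these members 1 was higher and 3 lower (669 and 929 of 9888 genes). Their median was -0.21 in place of 0.04. The median of all genes in that fit was not computed, so this shift has no background to be read against. At an adjusted p under 0.10, 2 were higher and 5 lower (968 and 1268 genes). Leaving out 1 array gave 0 to 1 members higher and 0 lower (20 to 118 genes higher, 17 to 94 lower), with fewer samples and, in each fit, a lone array assumed to vary like the other group. Whether replicate numbers pair the arrays was not settled. The deviations of same-numbered arrays correlated at -0.55 across genes, which are not independent. Genes higher in knockout 1 than in knockout 2 thus tended to be lower in wild type 1 than in wild type 2. The fits without a block leave this shared pattern in their SE. The number as a replicate block left 0 members higher and 0 lower (94 and 81 genes), with adjusted p of 0.056 to 0.18 for the 4 called members. The crossed pairing was not run. The cause of the other changes was not tested.

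The mean of all probe sets of a gene gave 2 members higher and 3 lower (555 and 768 genes). Repeated quantile normalization gave 2 higher and 3 lower, with 798 genes higher and 767 lower, and centring each array on its median gave 2 and 2, with 506 and 744. In the fits with all 4 arrays and no block, the calls of tested members ended for CYP2B6 with the mean of its probe sets (-0.61, adjusted p = 0.116) and for CYP4F3 without the trend (adjusted p = 0.060), and CYP1B1 and CYP26A1 kept theirs. Signs turned for uncalled members only. CYP3A5 was 0.030 as the mean of its probe sets. Over the left-out arrays CYP4F12 ran from -0.37 to 0.14, CYP2E1 from -0.063 to 0.14, CYP2A6 from -0.089 to 0.20, CYP3A4 from -0.12 to 0.33 and CYP7A1 from -0.021 to 0.25.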
